A study of Drosophila melanogaster with 4 samples.

Results

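Isolated H3K27ac clusters inside the autosomal arms are short regions listed as enriched for this mark in the Drosophila melanogaster genome, with no other listed region close by. They were chosen by their width, position and gaps in the list of enriched regions, called clusters here, that the authors made for the set of 2 replicates (the combined list). A member had to lie on 2L, 2R, 3L or 3R with its midpoint more than 2 Mb from both ends of the assembled arm, to be under 10 kb wide, and to have at least 20 kb free of other clusters on both sides. These conditions were met by 156 of the 7474 clusters of the combined list, and by 156 of the 4874 clusters inside the 4 arms. Of the 156, 151 also had no other cluster of either replicate within 20 kb. The replicate lists rest on the same libraries as the combined list, so this count is a description and no independent support for the label.

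Embryos were wild-type Oregon-R (Oregon-R-modENCODE) at 14 to 16 h of development, with no transgene or treatment named in the labels, crosslinked with 1.8% formaldehyde. The series holds 2 H3K27ac chromatin immunoprecipitation (ChIP) libraries and 2 input libraries of the same strain and age, each input belonging to a single ChIP replicate. Whole embryos were used, so a cluster may come from any tissue, and a mark in few cells cannot be told apart from a weaker mark in many. The labels do not tell whether separate embryo collections were used for the replicates, so their spread may be technical. The lists hold no read counts, and the depth behind each cluster is unknown. Positions are on FlyBase release 5, as deposited.

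Acetylation of histone H3 at lysine 27 is placed by the CBP acetyltransferase, known as Nejire in flies, and removed by histone deacetylases. The same lysine can instead be methylated by the Polycomb complex PRC2, and the acetylated form marks active promoters and active enhancers. Fly genes are often closely packed, so acetylated regions commonly lie near each other. Gene-poor stretches and stretches of genes silent in most cells carry little of the mark. Embryos of this age are past the shortening of the germ band, and their tissues are differentiating. No gene is named at any cluster, because no annotation or sequence of release 5 was used here.

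By the rule every cluster-free flank reached 20 kb, and the shortest was 20182 bp. The nearer of the 2 gaps had a median of 28811 bp, with quartiles of 23413.5 and 39194 bp, and the farther gap had a median of 53619 bp, with quartiles of 39318 and 92814 bp. Both gaps reached 50 kb for 21 members (13.5%) and 100 kb for 4 members (2.56%). At least 1 gap reached 50 kb for 89 members (57.1%) and 100 kb for 34 (21.8%). The stretch between the neighbours of a member had a median length of 86936 bp and ran up to 362870 bp. For comparison, the 4278 other clusters under 10 kb in the same arm interiors had a nearer gap of 1560 bp at the median. Since gaps chose the members, these lengths are a description.

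**Figure D1:**
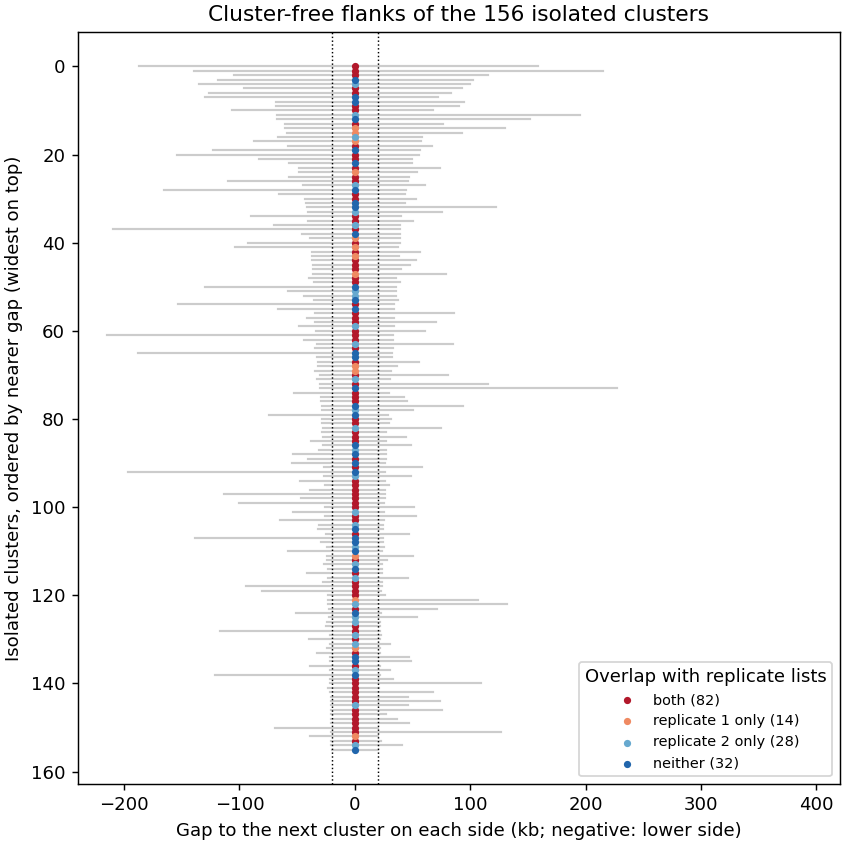
Gaps to the next cluster of the combined list on either side of each of the 156 isolated clusters, in kb. Each grey line is the cluster-free flank of 1 cluster, points are coloured by overlap with the replicate lists, and dotted lines mark the 20 kb that the rule asks for. All 4 classes of overlap occur among both long and short flanks.

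The member with the widest nearer gap lay on 3L from 18452962 to 18455026, with 186.846 kb free on its lower side and 158.352 kb free on its upper side. It was 2.06 kb wide with a weak score of 0.41, and it was found as a single cluster in both replicates, with scores of 0.38 in replicate 1 and 0.47 in replicate 2. Next was a cluster of 8.56 kb on 2L from 15906766 to 15915324, free for 139.394 kb below and 214.918 kb above. Its combined score was 1.01, and its scores were 0.80 in replicate 1 and 1.26 in replicate 2. It was among the 3 widest members and was the member on which the replicates differed most, by 0.46, replicate 2 minus replicate 1. A cluster on 3R from 7948184 to 7954462, 6.28 kb wide, had gaps of 104.688 and 115.742 kb, a score of 1.00 and replicate scores of 1.11 and 0.96. The other 2 of the 5 widest nearer gaps belonged to narrow clusters. That on 3L from 10085106 to 10086278 (1.17 kb, score 0.32) overlapped neither replicate list, and that on 3R from 8682604 to 8684052 (1.45 kb, score 0.31) overlapped replicate 2 alone, with a score of 0.44 there. The length of the nearer gap was almost unrelated to the score (Spearman's rho -0.03 across the 156 members) or to the width (rho -0.03).

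Most isolated clusters were narrow and had low scores. Widths ran from 1000 to 8894 bp with a median of 2039 bp and quartiles of 1485.5 and 3264 bp, against a median of 2642 bp and quartiles of 1812 and 4352 bp for the other clusters under 10 kb. The score, deposited by the authors as each cluster's own value within its list and on an unstated scale, ran from 0.14 to 3.33. Its median was 0.39, with quartiles of 0.31 and 0.57, against a median of 0.46 and quartiles of 0.34 and 0.73 for the other clusters under 10 kb. Of the members, 47 (30.1%) scored above 0.52, the median of the whole combined list. A score of at least 1 was reached by 17 members (10.9%), against 1381 of 7474 clusters of the whole list (18.5%). The whole list also holds clusters of 10 kb or more, which the rule leaves out. Inside the arms these had a median score of 1.19, so the width limit favours lower shares among members than in the whole list. Wider members had higher scores (rho 0.72 across members, against 0.80 across the other clusters under 10 kb). The members together covered 419.072 kb, or 1.89% of all bases covered inside these arms. Scores come from the same immunoprecipitates as the rule, so no test was made of these differences.

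**Figure D2:**
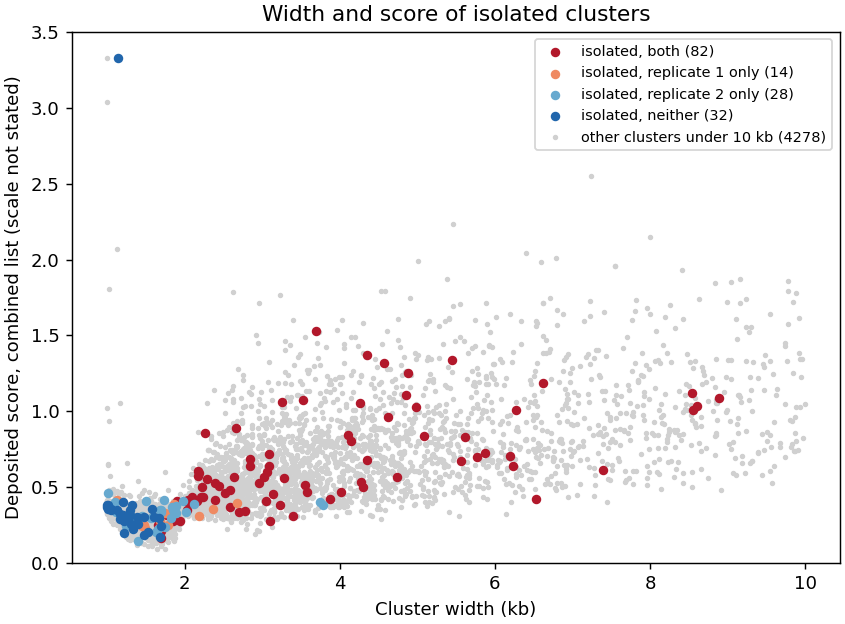
Deposited score in the combined list (vertical axis, scale not stated) against cluster width in kb. Coloured points are the 156 isolated clusters by overlap with the replicate lists and grey points are the 4278 other clusters under 10 kb inside the same arms. A single isolated cluster, 1.15 kb wide with a score of 3.33, stands above the rest, and the others reach at most 1.53.

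About as many isolated clusters were found in both replicates as were missed by at least 1 of them. In all, 82 of 156 (52.6%, exact 95% interval 44.4 to 60.6%) overlapped clusters of both replicates by at least 1 bp, against a background of 65.0% over all 7474 combined clusters. Replicate 1 was overlapped by 96 members (61.5%, background 73.0%) and replicate 2 by 110 (70.5%, background 75.4%). Members that overlapped replicate 1 alone numbered 14 (8.97%) and those that overlapped replicate 2 alone 28 (17.9%), against backgrounds of 8.05% and 10.4%. The remaining 32 (20.5%, interval 14.5 to 27.7%) overlapped neither list, against a background of 16.6%. Among the other clusters under 10 kb inside the arms, 62.5% overlapped both lists and 18.1% neither. Of these others, 7.48% overlapped replicate 1 alone and 11.9% replicate 2 alone. The latter share lay below the interval of the 17.9% of members (12.3 to 24.9%). The 62.5% in both lists lay above the members' interval of 44.4 to 60.6%. Replicate 1 was overlapped by 70.0% of the others, above the members' interval of 53.4 to 69.2%. The others' shares in neither list, in replicate 1 alone and in replicate 2 at all lay inside the members' intervals. These differences were not tested. The combined and replicate lists rest on the same libraries, so an overlap is no independent evidence for a cluster, and the intervals cover counting error only.

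Members found in both replicates were wider and stronger at the median than the rest. Their median width was 3097 bp and their median score 0.56, with a range of scores from 0.16 to 1.53. Those found in a single replicate were 1692 bp wide and scored 0.33 at the median, and none of the 42 scored above 0.46. Those found in neither were 1276 bp wide and scored 0.30 at the median, and all were between 1000 and 1702 bp wide. Of these 32, 19 (59.4%) fell below 1300 bp, a width under which the replicate lists hold no cluster. Of the 17 members with a score of at least 1, 16 overlapped both lists. The order of medians was not particular to isolated clusters. Among the other clusters under 10 kb, those in both lists were 3704 bp wide and scored 0.64 at the median. Those in neither were 1329 bp wide and scored 0.32.

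Within classes of width, set after the widths were seen, the share found in both replicates was close between isolated and other clusters. From 1300 to under 2000 bp it was 16.0% (8 of 50 isolated clusters, interval 7.17 to 29.1%), against 15.1% of 981 others. From 2000 to under 4000 bp it was 86.3% (44 of 51, interval 73.7 to 94.3%), against 80.2% of 1650 others. From 4000 to under 10000 bp all 30 isolated clusters overlapped both lists, against 98.3% of 1223 others. Below 1300 bp, 0 of 25 isolated clusters and 0 of 424 others overlapped both. Each share of the other clusters lay inside the interval of the isolated ones. The share found in neither list was 76.0% of isolated clusters below 1300 bp (interval 54.9 to 90.6%), against 86.3% of the others. It was 26.0% (interval 14.6 to 40.3%) against 36.7% from 1300 to under 2000 bp, and 0 of 51 against 3.03% from 2000 to under 4000 bp. Within these 3 classes the isolated clusters had the lower share, the opposite order to the 20.5% against 18.1% over all widths, and each share of the others again lay inside the interval. No test was made of these differences. The narrower 2 classes held 75 of the 156 isolated clusters, with 16.0% of members below 1300 bp and 32.1% in the next class, against 9.91% and 22.9% of the others. Scores within classes were also close. In the class of 2000 to under 4000 bp the median was 0.46 for isolated and 0.49 for other clusters, and from 4000 bp up it was 0.84 and 0.82.

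**Figure D3:**
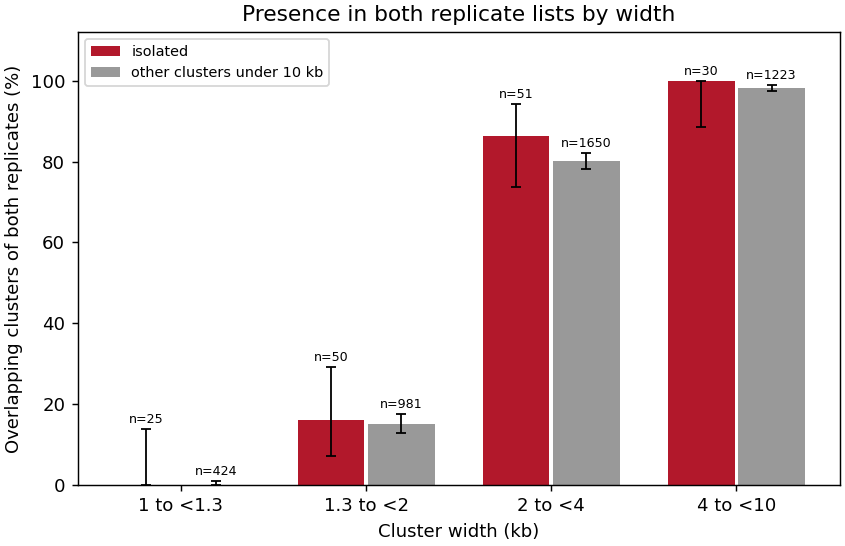
Percentage of clusters that overlap clusters of both replicate lists, by width in kb, for isolated clusters (red) and other clusters under 10 kb inside the same arms (grey). Error bars are exact 95% intervals for counting error and n is the number of clusters. The share climbs with width in both sets, with 0 of 25 and 0 of 424 in the narrowest class and 30 of 30 isolated clusters in the widest.

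The 6 strongest isolated clusters found in both replicates scored between percentiles 74.6 and 96.5 of the replicate lists. The highest lay on 3L from 6208238 to 6211932 and was 3.69 kb wide with a score of 1.53. Replicate 1 gave it 1.65 and replicate 2 gave it 1.44, a mean of 1.54 ± 0.15 (SD, n = 2). The replicate 1 score lay at percentile 96.5 of its list and the replicate 2 score at percentile 89.6 of its own. Its gaps were 20.42 and 36.482 kb. A cluster on 3L from 9606466 to 9610820 (4.35 kb) scored 1.37, with 1.36 and 1.46 in replicates 1 and 2 and gaps of 42.75 and 52.892 kb. On 3R from 23811192 to 23816644 a cluster of 5.45 kb, the highest of its arm among those in both lists, scored 1.33, with 1.29 and 1.43 in the replicates. The highest on 2L lay from 15498320 to 15502894 (4.57 kb) and scored 1.32, with 1.26 and 1.43. These 3 were a single cluster in each replicate, and in each the replicate 2 score was the higher.

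The next 2 were less alike between the libraries. The cluster on 3L from 7424830 to 7429708 (4.88 kb, score 1.25) had 1.15 in replicate 1 and 1.47 in replicate 2, a mean of 1.31 ± 0.23. That on 3R from 15046516 to 15053136 (6.62 kb, score 1.18) had 1.00 and 1.44, a mean of 1.22 ± 0.31. On 2R the highest member in both lists lay from 18685794 to 18694328, 8.53 kb wide, with replicate scores of 1.24 and 1.25 (mean 1.25 ± 0.01). Its combined score of 1.12 was below both. With 2 libraries no exact test of the order of these scores can reach 0.05.

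The widest member, of 8.89 kb, was found on 2R from 11133120 to 11142014, with a score of 1.09 and gaps of 26.07 and 29.668 kb. It was 8.86 kb wide in replicate 1 and 8.62 kb in replicate 2, with scores of 1.08 and 1.13. The second widest, on 2L from 13289596 to 13298204 (8.61 kb, score 1.04), was undivided at 8.64 kb in replicate 2, whereas replicate 1 had 2 clusters summing to 7.28 kb. The fifth, on 2R from 18131612 to 18139006 (7.39 kb), had a lower score of 0.61, with 0.72 and 0.60 in the replicates. In all, 6 members were divided, 5 by the replicate 1 list and 2 by the replicate 2 list. The member divided most was on 2R from 5632354 to 5638880 (6.53 kb, score 0.42), with 3 clusters in replicate 1 and 2 in replicate 2.

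Boundaries and scores could be compared between the libraries for the 76 members with exactly 1 cluster in each replicate. Their starts lay a median of 152.5 bp apart and their ends 163.5 bp apart. Of the 76, 45 starts and 42 ends were within 200 bp of each other. The largest distances were 1752 bp for starts and 2044 bp for ends. The median width was 2189.5 bp in replicate 1, 2521 bp in replicate 2 and 3054 bp in the combined list, where 62 of the 76 were wider than in either replicate. Across these members, which share the same 2 libraries, Spearman's rho between the scores was 0.79 and Pearson's r was 0.87. Across 2363 such pairs among the other clusters under 10 kb the values were 0.86 and 0.90. Replicate 2 had the higher score in 47 of 76 pairs (61.8%), and replicate 2 minus replicate 1 had a median of 0.03 with an SD of 0.16, against 69.4%, 0.07 and 0.15 among the others. The differences ranged from -0.26, on 3L from 2087076 to 2092056, to 0.46. As each score belongs to its own list, these differences do not measure acetylation.

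Even these members in both replicates scored below each whole list at the median. Their median score was 0.57 in replicate 1, where the whole list had a median of 0.69, and 0.65 in replicate 2, where the list had 0.75. No limit of width applies to the whole lists. Pairs among the other clusters under 10 kb had medians of 0.67 in replicate 1 and 0.75 in replicate 2. In replicate 1, 28 of 76 (36.8%) scored above the list's median, and in replicate 2, 31 (40.8%). The combined score was below both replicate scores in 41 of 76 pairs (53.9%), against 53.8% of the pairs among the other clusters under 10 kb. It lay between them in 34 and above both in 1.

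**Figure D4:**
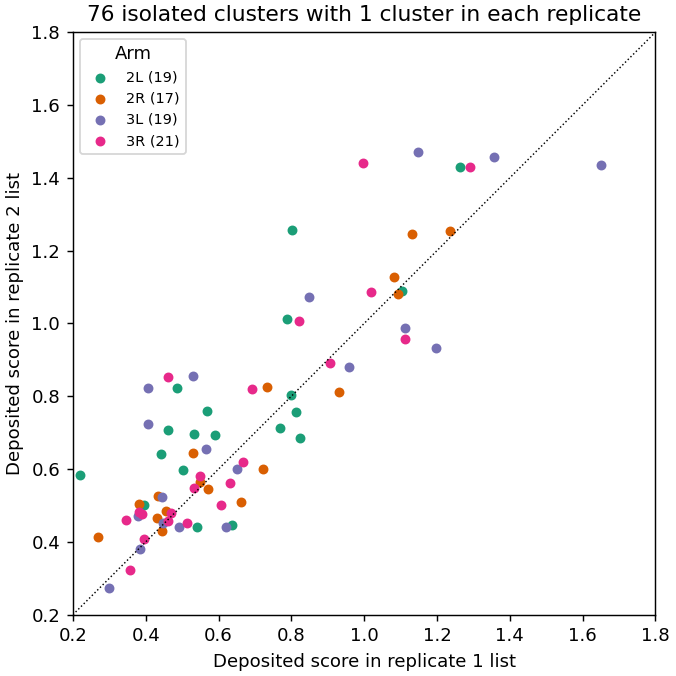
Deposited score in the replicate 2 list (vertical axis) against that in the replicate 1 list (horizontal axis) for the 76 isolated clusters that overlap exactly 1 cluster of each, coloured by arm. The dotted line marks equal scores. Points lie above it for 47 clusters, and those farthest from it lie above, up to a difference of 0.46.

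A single member broke the relation of width and score. The cluster on 3R from 3534182 to 3535328 was 1.15 kb wide, overlapped neither replicate list and had a score of 3.33, the highest of all members and the highest value of the combined list. The nearest replicate clusters were 39.211 kb away in replicate 1 and 46.02 kb away in replicate 2. Exactly the same score was given to a cluster 1.00 kb wide on 3R from 17134082 to 17135084, which also overlapped neither list and had a neighbour 4126 bp away. Shared scores were not rare, as 15 members (9.62%) and 702 clusters of the whole list (9.39%) had a score that another cluster of the list also had, to 9 decimals. The other members that overlapped neither list scored 0.40 or less. The next 5 of them lay on 2L from 11720546 to 11721752 (score 0.40) and from 12317240 to 12318240 (0.37), on 3L from 17147164 to 17148166 (0.38) and from 16300754 to 16301762 (0.38), and on 2R from 7363356 to 7364684 (0.38). They were 1.00 to 1.33 kb wide. Input libraries were not analysed here, so the signal of input chromatin at these places cannot be given.

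Isolated clusters occurred on all 4 arms. There were 41 on 2L, 29 on 2R, 40 on 3L and 46 on 3R, or 2.16, 1.69, 1.95 and 1.92 per Mb of arm interior. They made up 3.70% of the clusters inside 2L, 2.55% inside 2R, 3.17% inside 3L and 3.37% inside 3R. The arm 2R, with the fewest isolated clusters, had the most clusters of all kinds per Mb (66.4) and the largest covered share (32.1%). On 2L the values were 58.3 per Mb and 24.4%. Stretches of at least 20 kb without a cluster took up 42.2% of the interior of 2R, against 52.7% of 2L. The median score of members was 0.41 on 2L and on 2R and 0.35 on 3L and on 3R. The share found in both replicates was 56.1% on 2L (23 members), 62.1% on 2R (18), 50.0% on 3L (20) and 45.7% on 3R (21). Over all clusters inside the 4 arms it was 65.6%, and the share of all clusters was not taken by arm. The shares of members by arm rest on few clusters, and their differences were not tested.

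The same rule applied to each replicate list on its own gave more isolated clusters, 192 in replicate 1 and 181 in replicate 2 (186.5 ± 7.78, SD, n = 2). This way of counting was added after the data were seen. The density was 2.89 ± 0.07 per Mb on 2L, 2.26 ± 0.03 on 3L, 2.20 ± 0.21 on 3R and 1.90 ± 0.04 on 2R (SD, n = 2). In both replicates 2L had the highest density and 2R the lowest, as in the combined list. The highest or the lowest arm changed under 3 alternatives in the combined list. With a minimum gap of 10 kb 2L was the lowest, at 5.10 per Mb, and 3L the highest, at 5.45. With a gap of 30 kb 3R was the highest, at 1.05 against 0.999 on 2L. With clusters in neither replicate list left out first, 3L was the lowest, at 1.90 against 2.10 on 2R. With clusters narrower than 1300 bp left out first, 2L stayed the highest and 2R the lowest. There 3R passed 3L, at 1.92 against 1.85 per Mb. The replicates allow no exact test under 0.05, and the 3L and 3R densities differed by less than the spread on 3R. Of the clusters isolated in replicate 1, 110 (57.3%) overlapped a cluster isolated in replicate 2, which was 60.8% of the clusters isolated there. Of the 192, 90 (46.9%) overlapped a member and 99 overlapped another cluster of the combined list, and of the 181, 105 (58.0%) overlapped a member and 75 another cluster.

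Along the arms, isolated clusters were spread through the interior. With the interior of each arm cut into 3 equal parts, 50 lay in the part nearest the telomere, 56 in the middle and 50 in the part nearest the centromere, which was 3.04, 3.49 and 3.08% of the clusters there. Of 79 full bins of 1 Mb, 11 held none, 25 held 1, 24 held 2, 7 held 3 and 12 held 4 or more. Whether this differs from even placement was not tested. The most, 7, lay on 2R from 7000001 to 8000000, a bin covered at 28.9%, and 6 lay on 3R from 13000001 to 14000000, covered at 18.1%. The bin on 2L from 15000001 to 16000000, covered at 7.15%, held 5 among only 26 clusters. Bins without an isolated cluster were covered at 31.4% at the median, and those with 4 or more at 21.9%, a direction that the gap rule favours, since each member needs cluster-free sequence on both sides.

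**Figure D5:**
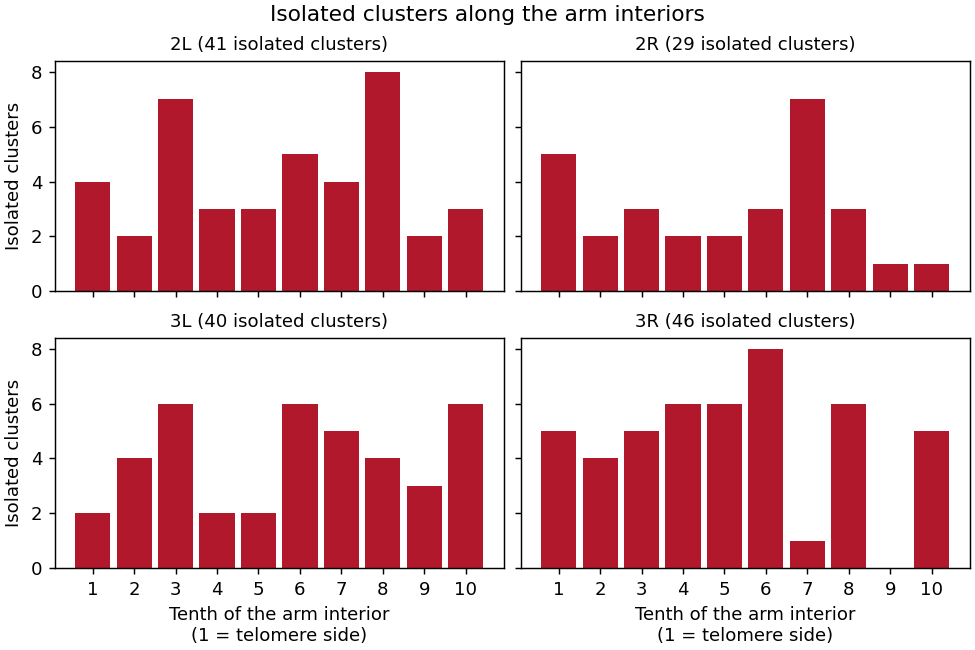
Number of isolated clusters in 10 equal parts of the arm interior, counted from the telomere side, for 2L, 2R, 3L and 3R. Bars start at 0, and the interior leaves out 2 Mb at each end of the assembled arm. Isolated clusters lie in every part of every arm except part 9 of 3R, which holds 0, and no part holds more than 8.

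Some isolated clusters followed one another. Of the 312 neighbouring positions, 72 (23.1%) were taken by another isolated cluster. Isolated clusters were 3.20% of all clusters inside the arms, but the rule itself raises the share among neighbours, since a neighbour already has 1 gap of at least 20 kb, and 14.9% of all gaps inside the arms reach that length. In all, 65 members stood in 29 runs of 2 or 3 in a row. The longest runs had 3, and there were 7 of these. The run with the most empty sequence was on 2L from 15906766 to 16170046, where 3 members, all in both replicates, covered 15.1 kb of the 463.714 kb between their neighbours. A little below it on 2L, from 15476930 to 15631340, lay another 3, covering 7.88 of 277.03 kb, among them the strongest member of that arm. On 3L from 4838806 to 4968984, 3 members covered 5.61 of 369.108 kb, and 1 of the 3 was in both replicates. The run on 3R from 3485468 to 3576312 held the cluster with the score of 3.33. The 240 distinct neighbours that were not isolated were 2592 bp wide and scored 0.45 at the median, against 2856 bp and 0.49 for all clusters inside the arms. Among them 17 (7.08%) were 10 kb wide or more, against 9.03% of all clusters inside the arms.

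A few replicate clusters lay inside the flanks. For 5 members a cluster of a replicate list that did not overlap the member lay within 20 kb, in replicate 1 for 1 of them and in replicate 2 for 4. The closest was 344 bp from the member on 2R at 7965452 to 7968038. These 5 were singled out after their values were seen.

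The rule has limits of gap, width and position. The members with the smallest nearer gap, on 3L at 17147164 to 17148166 and at 17168362 to 17170056, had 20182 and 20196 bp, and scores of 0.38 and 0.35. Just outside, the clusters on 3R at 8385896 to 8390152 and at 8409992 to 8411420 lay 19840 bp apart, with scores of 0.64 and 0.33. Only 4 clusters inside the arms met the gap rule but were too wide. The narrowest of them spanned 10.7 kb on 2R from 16825054 to 16835710 with a score of 1.28, where the widest member spanned 8.89 kb with 1.09. The member nearest an arm end was on 2L from 2008492 to 2014682 (score 0.71), 2.01 Mb from the end. The nearest cluster left out for its position was on 3R from 1976572 to 1983932 (score 1.17), 1.98 Mb from the end.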

How the data were processed

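The 4 libraries were grouped by their titles into ChIP and input. The submitters' processing notes name Bowtie 0.12.7 for alignment. How peaks were called, and how the replicates were joined, is not given in the sources used here. Positions are on FlyBase release 5, per the file headers. The authors deposited a score for each cluster, whose scale is not stated. It was used to describe and rank clusters within a list. Means, differences and orders of scores across lists are also given, though it is not known whether the lists share a scale. The only depleted region was left out.

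Width was end minus start, and a gap was the next start minus the end. Overlap needed at least 1 bp. Intervals for shares are exact Clopper-Pearson at 95% confidence. No test was made, since the lists share the libraries that chose the members, and 2 replicates allow no exact test under 0.05. The depth is unknown and no reads were counted. The code that finds isolated clusters was checked on simulated lists.

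The members, lists and comparisons were chosen with earlier results of these data known. By rule, the regions named are the 6 highest scores among members in both lists and the 6 among those in neither, the 5 widest, the 5 with the widest nearer gap, the highest of each arm and those nearest each limit. Regions named outside this rule are those in bins, runs, divided clusters, replicate differences and flanks. They were chosen after their values were seen. The only gene table used here is of release 6, so no gene or sequence is given. Alternatives changed the gap, width, arm end, overlap and list. The tools were SciPy 1.17.1, matplotlib 3.10.9, pandas 2.3.3, NumPy 2.4.6 and Python 3.11.15.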

Additional observations from a re-analysis of the deposited data

How the results depend on the processing

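The combined list cannot be remade without a library, so the replicates were left out of the overlaps alone. Of the recomputed values, 92 stayed within the limit set for them and 27 did not. The limit was the interval of the reported value, or 1.5 times for a count or density. For the rank correlation it was a fixed difference. By its construction the gap rule set the number. A minimum gap of 10 kb gave 426 isolated clusters, with 5.10 per Mb on 2L, 5.25 on 2R, 5.45 on 3L and 5.31 on 3R, so 2L was the lowest and 3L the highest. A gap of 30 kb gave 73, with 0.999, 0.583, 0.925 and 1.05 per Mb, so 3R was the highest, and a rank correlation between replicates of 0.69. Leaving out combined clusters in neither replicate list before the rule raised the median width to 2550 bp and the median score to 0.43, with 67.6% in both lists and, by construction, 0% in neither, and 3L became the arm of lowest density (1.90 per Mb). Leaving out those narrower than 1300 bp gave 2273 bp, 61.5% and 11.5%. Members above the median score of the whole combined list (0.52) were in both lists for 97.9% and in neither for 2.13%. With a single replicate, 61.5 to 70.5% of members overlapped its list and 29.5 to 38.5% did not. The rule applied to the replicate lists, added after the data were seen, gave median scores of 0.55 in replicate 1 and 0.59 in replicate 2, and a median width of 2253 bp in replicate 2. Where construction is not named, the cause was not tested. No paired analysis was possible because no result comes from a test.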
